A study of Homo sapiens with 2 samples.

Results

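The genes described here build and tend the LINC complex, the protein bridge that couples the nucleus to the cytoskeleton. They are the SUN-domain genes SUN1 and SUN2, the nesprin genes SYNE1 to SYNE4, the inner nuclear membrane gene TMEM201, the torsin ATPase genes TOR1A and TOR1B, and the torsin activator gene TOR1AIP1. These 10 genes were chosen by name, and every probe set that the platform annotation ties to only 1 of them was taken. That gave 31 probe sets of 49293, and 10 genes of 18132. RNA came from HCT116, an established human colorectal carcinoma line grown in DMEM with 10% serum, and was hybridised to Affymetrix PrimeView arrays. The scrambled control (treatment Scr, title NC) and the knockdown with the hairpin shSUN2-1 were both made in this line, with 1 array and no replicate in either group. The labels do not say whether either culture was 1 clone or a pool. In such bulk RNA, fewer cells with a transcript and less of it per cell cannot be told apart.

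In the LINC complex, SUN proteins span the inner nuclear membrane, touch the lamina on the nuclear side and reach into the space between the membranes. There the SUN domain grips the KASH peptide at the end of a nesprin, which crosses the outer membrane and binds actin, microtubule motors or intermediate filaments in the cytoplasm. TorsinA is an ATPase of the same space that needs a membrane activator and is known for its role in remodelling nuclear envelope bridges.

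With 1 array per group there are no residual degrees of freedom, so the spread between cultures is not known and nothing was tested. The precision is limited by the number of arrays. A difference is the value of the knockdown array less that of the control array, on the log2(intensity + 16) scale, where 16 is a pseudocount that shrinks differences of dim probe sets. A probe set was past the filter when its mean over both arrays reached 108.2, the median of all probe sets, and 19 of the 31 did. Probe sets of 1 gene scattered around their gene's mean difference with an SD of 0.09 over 5786 genes. That SD measures disagreement between probe sets, whatever its source, and not the spread between cultures. All 8 colorectal epithelial markers were past the filter, and the epithelial origin of the line was visible in bright ones such as KRT19 and EPCAM. Of 18 markers of fibroblasts, immune cells, endothelium and muscle, 7 were past the filter, none brighter than 259.3 in the control array. The epithelial markers ELF3 (245.8) and CDX1 (162.8) were dimmer than that in the same array. Those 7 markers of other cell types were all lower in the knockdown array, with differences from -0.13 to -0.07. The summed intensity of the 18 was 2198 in the control and 2071 in the knockdown array. The epithelial markers moved the other way, from a sum of 8124 to 9473, with 7 of 8 higher and KRT8 (0.34) and KRT18 (0.32) past 1.2-fold. Over all genes past the filter, 50.2% were lower and 5.97% at least 1.2-fold higher. The share lower depended on intensity, at 37.9% of all probe sets at or above the 75th percentile and 57.7% of all probe sets without the filter. The part of intensity in the marker shifts, and of either shift in the results below, was not tested. Of 23 background control probe sets, designed to bind no human RNA, 20 were lower in the knockdown array.

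SUN2, the gene the hairpin was aimed at, was lower in the knockdown array on every one of its 6 probe sets. Its brightest probe set, 11744355_a_at, had an intensity of 497.7 in the control and 407.3 in the knockdown array, a log2 difference of -0.28. The next, 11744446_a_at, was brighter in the control array (510.4) and darker in the knockdown array (393.4), with a difference of -0.36. Next in brightness, 11752062_a_at went from 403.5 to 304.4 (-0.39). Between 75.4% and 81.8% of the control intensity was thus left on the 3 bright probe sets, all of which passed 1.2-fold and none 1.5-fold. The fold of 1.2 is a size chosen for counting and not a test. Of all 24647 probe sets past the filter, 0.848% were at least 1.2-fold lower and 6.28% at least 1.2-fold higher. Quantile normalization moved these to 1.61% and 3.83%, and lower probe sets from 11.9% to 29.6% of those past 1.2-fold. Loess moved them to 1.29% and 4.73%, with 21.5% of those past 1.2-fold lower.

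**Figure D1:**
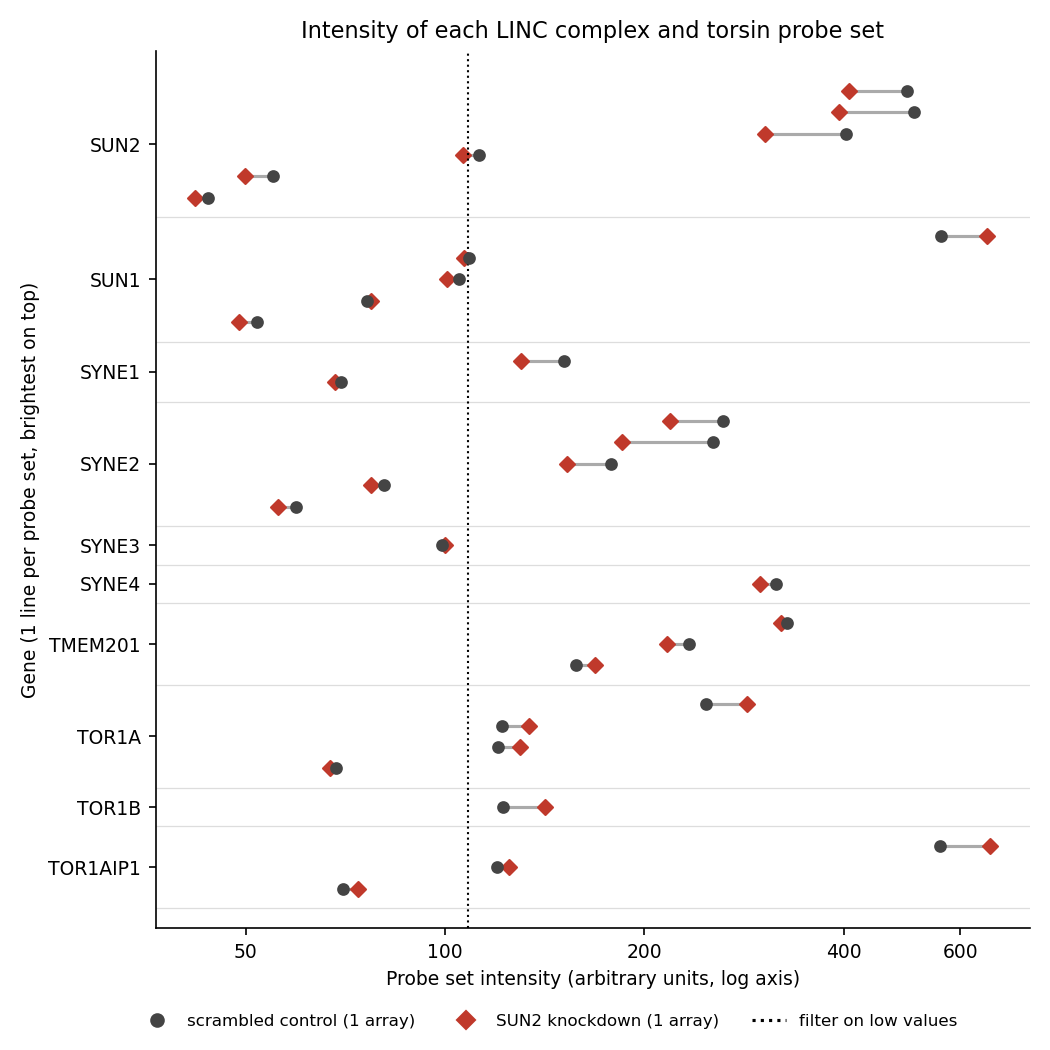
Intensity (log axis, arbitrary units) of each of the 31 probe sets in the scrambled control (circle) and the SUN2 knockdown (diamond), with 1 line per probe set, the brightest of each gene on top, and the filter on low values as a dotted line. The 3 bright SUN2 probe sets and the 3 SYNE2 probe sets past the filter sit lower in the knockdown array, and the brightest SUN1, TOR1A and TOR1AIP1 probe sets sit higher.

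The other 3 SUN2 probe sets were dim, and their differences were smaller. The x-class probe set 11748049_x_at, whose probes may also bind other transcripts, lay just past the filter with 112.5 in the control and 106.5 in the knockdown array (-0.07). The last, 11749479_a_at and 11748048_a_at, differed by -0.10 and -0.05 from control intensities of 54.9 and 43.9. Of the 23 background controls, 9, 12 and 14 were brighter than these 3 probe sets, and 4, 4 and 5 brighter than the 3 bright ones. When the background control with 17 G or C bases was subtracted from each array, the 3 bright probe sets kept 75.8%, 69.2% and 63.2% of control. With the control of 20 G or C bases they kept 66.7%, 56.9% and 33.5%. The base composition of the SUN2 probes was not used here, so which of these applies is not known.

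SUN1, which encodes the other widely expressed SUN protein and can take part in the same bridges, was higher on its 1 probe set past the filter. That probe set, 11717989_a_at, had an intensity of 560.3 in the control and 657.1 in the knockdown array, a difference of 0.22, or 0.12 after quantile normalization and 0.14 after loess. A larger increase was found for 9.04% of all genes past the filter. The other 4 SUN1 probe sets lay below the filter and differed by -0.07 to 0.02, 3 of them lower. The higher SUN1 value therefore rests on 1 probe set. SUN1 lies next to GET4 in the RefSeq gene order, and 4 further probe sets carry both symbols. These were not counted as SUN1, and they differed by -0.11 to 0.01.

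The nesprins supply the KASH side of the bridge. SYNE2, the giant nesprin-2 with an actin-binding head, was lower on all 5 of its probe sets. Its 3 probe sets past the filter had control intensities of 262.7, 253.6 and 178.0 and knockdown intensities of 218.5, 185.2 and 152.7. Their differences were -0.25, -0.42 and -0.20, a mean of -0.29 with an SD of 0.12 between probe sets. For SUN2, the mean over its 4 probe sets past the filter was -0.28 with an SD of 0.14, so the means of SUN2 and SYNE2 differed by less than either SD. The 3 bright SUN2 probe sets alone had a mean of -0.34. The middle SYNE2 probe set, 11756450_s_at, was the lowest of all 31 and the only one outside SUN2 past 1.2-fold. It belongs to the s class, whose probes are shared between transcripts.

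Among genes with at least 3 probe sets past the filter, all of these were lower in 23.0%, and SUN2 and SYNE2 were among them. A mean difference at or below that of SUN2 was found in 0.501% of the same genes, and one at or below that of SYNE2 in 0.424%. By the brightest probe set alone, 80 genes of 12218 had a larger decrease than SUN2 and 130 a larger one than SYNE2. On that probe set SUN2 and SYNE2 stood at -0.28 and -0.25, and further apart after quantile normalization (-0.36 and -0.27) or loess (-0.34 and -0.25).

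SYNE1, which encodes nesprin-1, the close relative of nesprin-2, was lower on both of its probe sets. The 1 past the filter had 151.0 in the control and 130.1 in the knockdown array (-0.19), and the dim one had 69.6 and 68.1 (-0.03). SYNE4, which encodes the epithelial nesprin-4 that binds kinesin, was represented by 1 probe set with 316.2 and 299.3 (-0.08). SYNE3, whose product nesprin-3 links through plectin to intermediate filaments, had 1 probe set below the filter, at 99.0 and 100.1 (0.01). A further dim probe set carries the symbols of both SYNE3 and LINC00341 and was not counted as SYNE3. It had 74.9 and 72.3 (-0.04). The 5 nesprin probe sets past the filter were all lower, with a median of -0.20, where 48.9% of all probe sets past the filter were lower. The differences of SYNE4 and SYNE3 were smaller than the 0.09 by which probe sets of 1 gene scatter.

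The intensity lost by the nesprins was of the size that some background controls lost. SYNE1 lost 20.9 units and the 3 SYNE2 probe sets 44.2, 68.4 and 25.3 units. Background controls whose probes hold 20, 21, 22 and 23 G or C bases lost 18.7, 25.8, 49.0 and 72.6 units, and the bright SUN2 probe sets 90.4, 117.0 and 99.2. These 4 controls had control intensities from 282.4 to 751.1, each brighter than every SYNE1 and SYNE2 probe set. The controls as dim as those probe sets, with 17 to 19 G or C bases, lost 7.16 to 13.5 units, less than each of them. The part of background in the nesprin differences was not tested.

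**Figure D2:**
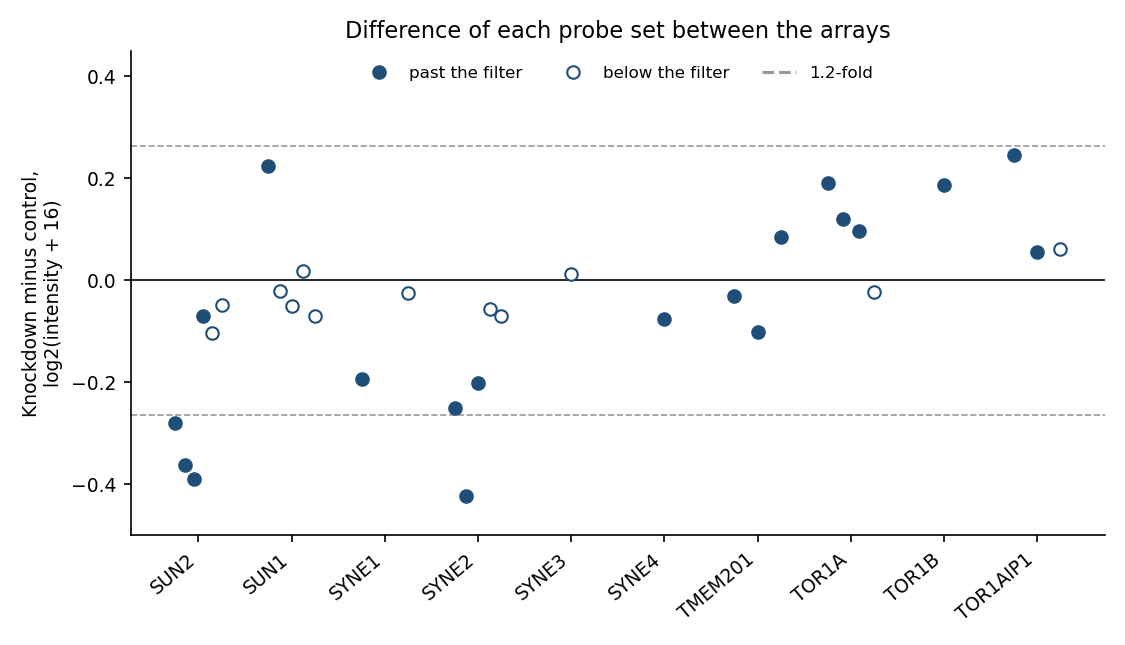
Difference between the arrays for each probe set on the log2(intensity + 16) scale, grouped by gene and ordered from the brightest probe set (left) to the dimmest. Filled points passed the filter and open points did not, and dashed lines mark 1.2-fold; 4 points, 3 of SUN2 and 1 of SYNE2, lie below the lower line and 0 above the upper one.

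SUN2 and SYNE2 are the 2 members with several probe sets past the filter that were all lower, and the sequence before their first listed start site is shown for reference. RefSeq on GRCh38.p14 gave promoter windows for 7 of the 10 genes, and the arrays carry no data on the start site used in HCT116. The 250 bases that end just before the start site are written 5′ to 3′ on the strand of the gene. They lie at chr22:38755999-38756248 on the minus strand for SUN2 and at chr14:63852754-63853003 on the plus strand for SYNE2. Capitals mark the CCAAT box motif (CCAAT, or ATTGG on the other strand) and the GC box motif (GGGCGG, or CCGCCC on the other strand), with overlapping matches counted.
SUN2: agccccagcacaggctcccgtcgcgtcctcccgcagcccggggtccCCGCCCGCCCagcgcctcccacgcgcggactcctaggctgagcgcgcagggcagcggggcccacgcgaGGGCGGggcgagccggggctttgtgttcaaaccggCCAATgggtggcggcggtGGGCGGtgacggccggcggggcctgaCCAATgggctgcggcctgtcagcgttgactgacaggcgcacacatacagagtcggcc
SYNE2: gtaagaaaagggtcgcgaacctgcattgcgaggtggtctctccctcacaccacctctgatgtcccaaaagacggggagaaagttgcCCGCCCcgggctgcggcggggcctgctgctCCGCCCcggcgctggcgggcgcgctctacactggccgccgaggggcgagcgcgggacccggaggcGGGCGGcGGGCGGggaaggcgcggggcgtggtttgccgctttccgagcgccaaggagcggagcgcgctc
The SUN2 window held 2 CCAAT and 4 GGGCGG matches, and the SYNE2 window 0 and 4. Of 35116 promoter windows of this length, 32.0% held CCAAT and 42.6% held GGGCGG on either strand. Both printed windows are rich in G and C, at 74.8% and 72.8%. A match describes the letters only.

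TMEM201, an inner nuclear membrane protein also called SAMP1 that associates with SUN-nesprin lines along actin cables, had 3 probe sets past the filter that went in different directions. The brightest had 328.3 in the control and 321.3 in the knockdown array (-0.03). The others had 233.4 and 216.5 (-0.10) and 157.7 and 168.2 (0.08). Their mean was -0.02 with an SD of 0.09, so TMEM201 did not differ beyond the scatter of its probe sets.

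The torsin genes lay on the other side of 0. TOR1A, which encodes torsinA and is mutated in early-onset dystonia, was higher on its 3 probe sets past the filter. These had 248.1, 121.9 and 120.3 in the control and 285.6, 133.9 and 129.7 in the knockdown array, for differences of 0.19, 0.12 and 0.10. The other, below the filter, had 68.4 and 67.0 (-0.02). Of genes with at least 3 probe sets past the filter, 31.7% had all of these higher and 21.0% had a mean difference at or above that of TOR1A. An increase like that of TOR1A was therefore common in these arrays.

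TOR1B, the torsinA paralog encoded next to TOR1A, was measured by 1 probe set with 122.3 in the control and 141.5 in the knockdown array (0.19). TOR1AIP1 encodes LAP1, the inner membrane protein that activates torsins and binds lamins. Its brightest probe set, 11756799_s_at, had 558.3 and 665.0, a difference of 0.25, or 0.14 after quantile normalization and 0.16 after loess. Its second had 119.8 and 125.1 (0.06). The dim probe set had 70.1 and 73.9 (0.06). All 6 torsin and TOR1AIP1 probe sets past the filter were higher, with a median of 0.15 and 0 past 1.2-fold, where 51.1% of all probe sets past the filter were higher. The share was larger among bright probe sets, of which 37.9% were lower when only those above the 75th percentile of intensity were taken. Only 2 of the 6 torsin and TOR1AIP1 probe sets were that bright, and this share does not describe the dimmer ones. The brightest probe sets of TOR1A and TOR1AIP1 and the only one of TOR1B were of the s class. Without the x and s classes TOR1AIP1 stood at 0.06 and TOR1B had no probe set.

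**Figure D3:**
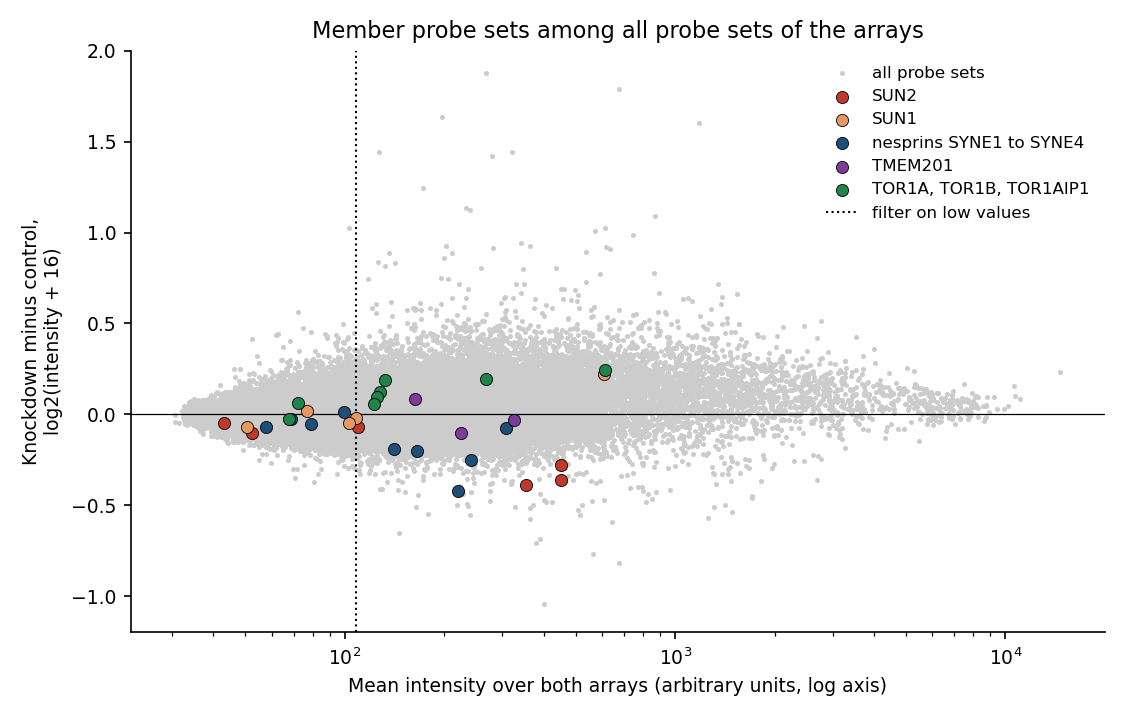
Difference between the arrays against mean intensity over both arrays (log axis) for all probe sets without controls (grey) and the 31 member probe sets (coloured by gene group). The 3 bright SUN2 probe sets, from -0.39 to -0.28, and the lowest SYNE2 probe set, at -0.42, lie at the lower edge of the cloud, and the other member probe sets lie within it.

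Across the 10 genes, 5 were lower and 5 higher on their brightest probe set, where 50.2% of all genes past the filter were lower. Of the 19 probe sets past the filter, 11 were lower, 4 of them past 1.2-fold, and 8 were higher, 0 past 1.2-fold. At 1.5-fold there were 0 in either direction, against 0.0284% of all probe sets past the filter lower and 0.296% higher. The 12 probe sets below the filter differed by -0.10 to 0.06. Among the 15 probe sets past the filter outside SUN2, 7 were lower and 8 higher, with a median of 0.06, beside a median of 0.004 over all probe sets past the filter. On the brightest probe set, SUN2, SYNE1, SYNE2, SYNE4 and TMEM201 were below 0, and SUN1, SYNE3, TOR1A, TOR1B and TOR1AIP1 above it. The SUN-domain genes thus lay on opposite sides, and the values of SYNE3, SYNE4 and TMEM201 were smaller than the probe scatter of 0.09. No test of these directions exists with 1 array per group.

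Further genes of the bridge were taken from a list of 37 genes with other SUN and KASH genes, torsins, lamins with lamin-binding membrane proteins, and cytoskeletal partners. Of these, 32 passed the filter on their brightest probe set, 24 higher and 8 lower, with a median of 0.11, against 49.8% higher over all genes. Most were bright, with 26 at or above the 75th percentile of intensity, 21 higher and 5 lower. Of all probe sets that bright, 37.9% were lower, and their median was 0.05. After quantile normalization the split of the 32 was 19 and 13, with a median of 0.03, and after loess 21 and 11, with a median of 0.04. Without the x and s classes 20 genes were left, 11 higher and 9 lower, with a median of 0.03. At least 1.2-fold higher were 6, and 0 were 1.2-fold lower, against 5.97% and 0.884% of all genes past the filter. No other SUN-domain or KASH-domain gene was lower by 1.2-fold. SPAG4, a SUN-domain gene best known from testis, had 59.8 in the control and 59.7 in the knockdown array, below the filter, as SUN3, SUN5 and KASH5 were. SUCO, a SUN-like protein of the endoplasmic reticulum, differed by 0.20, and the KASH gene IRAG2 by -0.06.

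The lamins and lamin-binding membrane proteins were higher in 11 of 11 cases, or 10 of 11 after quantile normalization or loess, which put the lamin B receptor gene LBR below 0. Over all genes past the filter, 49.8% were higher. At or above the 75th percentile of intensity were 10 of the 11, and of all probe sets that bright 37.9% were lower. Without the x and s classes 7 genes were left, of which 5 were higher and LEMD3 and TMPO lower. The median of the 11 was 0.14, or 0.05 after quantile normalization and 0.07 after loess, and that of the 7 was 0.08. At least 1.2-fold higher were 4 of the 11, against 5.97% of all genes past the filter. Among all probe sets at or above the 75th percentile, 9.87% were. LMNA, the gene of the lamins that SUN proteins bind, had 492.0 in the control and 690.3 in the knockdown array (0.48), with 7 probe sets from -0.03 to 0.48. TMEM43, an inner membrane partner of lamins and emerin, differed by 0.41, and its 3 probe sets ran from 0.18 to 0.41. ZMPSTE24, the protease that matures prelamin A, differed by 0.30 on 1 probe set. TMPO, which encodes the lamina-associated LAP2 proteins, differed by 0.29 on its brightest probe set and by -0.04 on the other. EMD, the gene of emerin, differed by 0.08. Probe sets of LMNA and TMPO thus disagreed, and in each of these genes the brightest gave the highest value.

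Genes that link nesprins to motors and filaments were mixed, with 9 of 15 higher and a median of 0.03, beside 49.8% higher over all genes past the filter. Of the 15, 14 were at or above the 75th percentile of intensity, 9 higher and 5 lower. The split turned to 5 of 15 higher and a median of -0.04 after quantile normalization, and to 7 of 15 and -0.01 after loess. BICD2, a dynein adaptor at the nuclear envelope, had 308.7 and 420.0 (0.43), with 5 probe sets from 0.02 to 0.43. NDEL1, a dynein regulator, had 241.3 and 327.2 (0.42) on its 1 probe set past the filter. The plectin gene PLEC, whose product binds nesprin-3, differed by 0.25, and the kinesin light chains KLC1, KLC2 and KLC4 by -0.07 to -0.04. TOR1AIP2, the endoplasmic reticulum counterpart of TOR1AIP1, differed by -0.04. Averaging all probe sets of each gene left 1 of the 32 listed genes past the filter at 1.2-fold or more, in place of 6. Without the x and s classes it was 3 of the 20 genes left. Over all genes the count went from 838 to 421 and to 631.

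**Figure D4:**
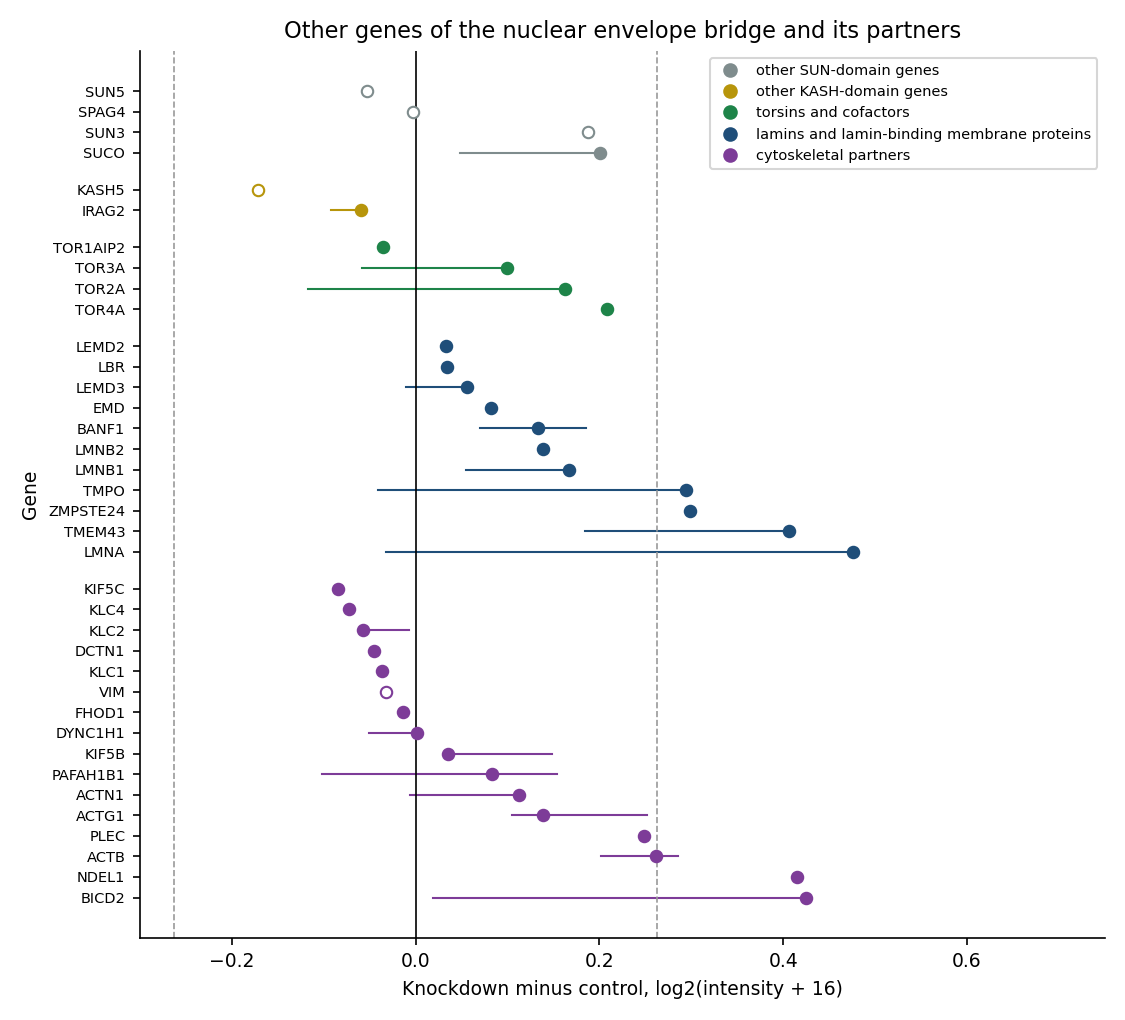
Difference between the arrays for the brightest probe set (point) of 37 further genes, with a line from the lowest to the highest probe set past the filter; open points did not pass the filter and dashed lines mark 1.2-fold. All 11 lamin and lamin-binding membrane protein genes lie above 0 on their brightest probe set without further scaling (LBR lay below 0 after quantile normalization or loess), LMNA highest at 0.48.

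Each of the 10 genes kept its side of 0 under the 10 alternatives that gave it a value, while its size moved. The alternative filters could not change a value, as each gene kept its brightest probe set. Leaving out the x and s classes returned the same values for SUN1, SUN2 and SYNE1 to SYNE4. For SYNE3, SYNE4 and TOR1B, with 1 probe set each, the mean of all probe sets is that same probe set. SUN2 ranged from -0.36 to -0.21, SYNE2 from -0.27 to -0.20 and SYNE1 from -0.21 to -0.11. SUN1 ranged from 0.02 to 0.24 and TOR1AIP1 from 0.06 to 0.26, the low ends of which came from averaging all probe sets and from leaving out the x and s classes, and quantile normalization and loess lowered both as well. TOR1A lay between 0.10 and 0.21. These settings share the same 2 arrays, so the agreement says nothing about other cultures.

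**Figure D5:**
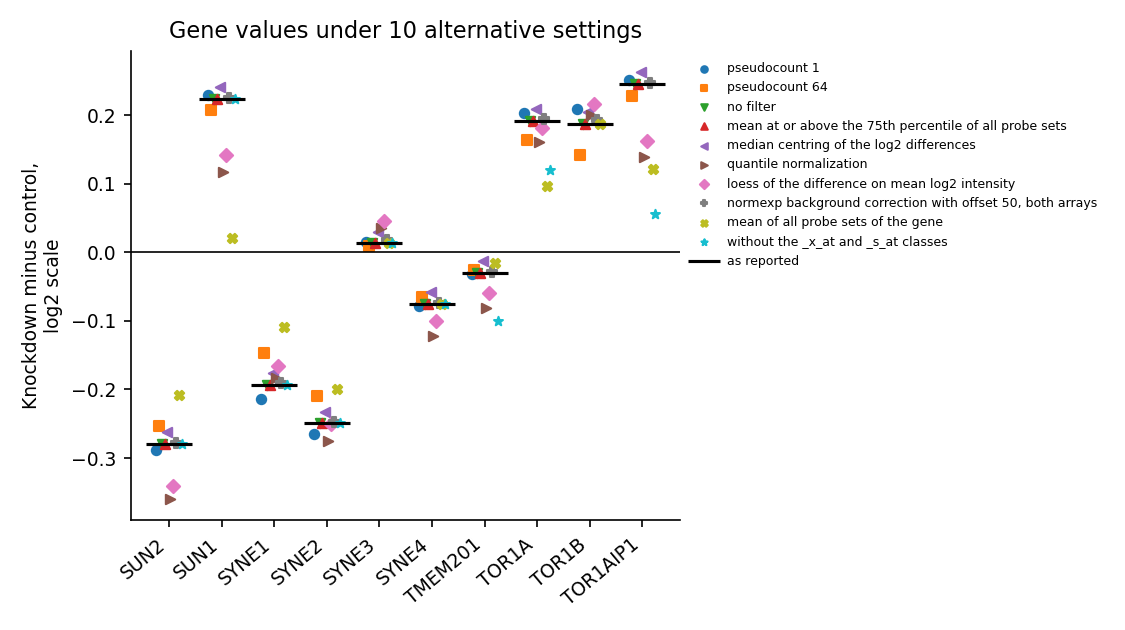
Difference between the arrays for each of the 10 genes under 10 alternative settings (coloured symbols) and as reported (black bar). SUN2, SYNE1, SYNE2, SYNE4 and TMEM201 lie below 0 in every setting and the other 5 genes above 0, with no value for TOR1B without the x and s classes; SUN1 has its lowest value, 0.02, when its 5 probe sets are averaged.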

How the data were processed

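HCT116 RNA (100 ng total RNA per labelling, per the labels' protocols) was measured on 1 array per group. The authors deposited 1 linear intensity per probe set and array. MAS5 and RMA appear in the submitters' processing notes without role or order. How the arrays were normalized to each other is not given in the sources consulted. Control-array and knockdown-array medians were 108.8 and 107.1.

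Of 49293 probe sets without controls, 44988 had 1 gene symbol, 1832 several and 2473 none. For 44961 the Entrez ID was matched to RefSeq and the RefSeq symbol was used, whether or not it differed. Only probe sets with 1 symbol were assigned. Intensities were converted to log2(intensity + 16), the filter was the 50th percentile of mean intensity, and a gene was represented by its brightest probe set (12218 genes past the filter). Whether probe sets of a gene share probes was not checked.

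Named were all members, partner genes past 1.2-fold, and LMNA, EMD, TOR1AIP2 and SPAG4; SUN3, SUN5, KASH5, SUCO, IRAG2, LBR, PLEC and the kinesin light chains were named after their values were seen. Members and lists were chosen with earlier results of these data known. Python 3.11.15, pandas 2.3.3, statsmodels 0.14.6 and limma 3.58.1 (normexp, offset 50, in place of the pseudocount) were used. The steps were tested on known changes put into the control array, with noise below the 0.09 scatter of probe sets. That check does not measure false calls in these data. Alternatives covered pseudocounts, filters, centring, quantile, loess, normexp, the mean of all probe sets and probe set classes.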

Additional observations from a re-analysis of the deposited data

How the results depend on the processing

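No paired analysis was possible because the control and the knockdown are single arrays, and leaving 1 out would leave no comparison. No gene among the 10 changed its side of 0 under the 10 alternatives, and TOR1B had no value without the x and s classes. Some of these alternatives, such as those of the filter, could not change a gene's value. A value was taken as moved when it shifted by more than the 0.09 scatter of probe sets, and a count when it changed by over 1.5 times. Without the filter, 20 of 31 member probe sets were lower in place of 11 of 19, that is 64.5% in place of 57.9%, while the share over all probe sets went from 48.9% to 57.7%. Averaging all probe sets left 1 of 32 partner genes past 1.2-fold in place of 6, and 421 of all genes in place of 838. Leaving out the x and s classes left 3 of the 20 partner genes that remained, and 631 of all genes. Subtracting the background control with 17 G or C bases, an alternative chosen after seeing the data, put SUN2 at -0.38 and SYNE2 at -0.51. The control with 14 G or C bases, also chosen afterwards, put both at -0.32. Which of these applies to the probes is not known. SUN2 fell short of 1.2-fold with median centring (-0.26), a pseudocount of 64 (-0.25) and the mean of all its probe sets (-0.21). Probe sets under the filter lie in the range of the background controls, so their small differences set no limit on a change in transcript level. Passing the filter did not put a member probe set clear of that range. Of the 23 background controls, 3 were brighter than the brightest SUN1 and TOR1AIP1 probe sets, the brightest of the 31.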
